A study of Mus musculus with 8 samples.

Results

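The genes described here are 48 mouse genes of DNA break repair and damage signalling, chosen by name and function, among the 29079 genes of the count table. All 48 were found and all 48 passed the filter on low counts. They were read in MC38, a mouse colon carcinoma cell line, in 4 groups of 2 libraries. The WT groups are the line labelled WT, which carries a CRISPR control, either not irradiated or 60 hours after a single X-ray dose of 30 Gy. The KO groups are a line labelled Piezo2-KO, made with the guide named Piezo2-gRNA1, in the same 2 states. Piezo2 encodes a mechanically gated ion channel. Whether each line is 1 clone or a pool of edited cells is not stated in the sources used here, so an effect of the KO line cannot be told apart from a difference between 2 cell lines. Nothing states that the 2 libraries of a group came from separate cultures, so p-values measure only how these libraries spread, and that spread may be technical.

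A cell that suffers a double-strand break senses it through 2 large kinases. Atm answers double-strand ends together with the MRN complex, Atr answers single-stranded DNA with its partner Atrip, and both pass the signal to the checkpoint kinases Chek2 and Chek1, which hold the cell cycle. Phosphorylated histone H2AX and the scaffold protein Mdc1 then gather repair proteins around the break. The ends are joined directly by the end-joining proteins, or resected and copied from the sister chromatid by homologous recombination, which works in S and G2 phase. The Fanconi anaemia proteins deal with crosslinks between the strands. Most of these proteins are also regulated by phosphorylation and by their place in the nucleus, which RNA does not show.

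Library totals ran from 10971004 to 19887180 reads counted in genes. Levels are given as CPM, read counts scaled to library size by the TMM method, and changes as log2 ratios ± SE, where 1 is a 2-fold change. The Pearson correlation of log2 CPM was 0.979 to 0.983 within groups and 0.898 to 0.972 between groups. Piezo2 itself had 0 and 0 reads in unirradiated and 3 and 9 in irradiated WT, and 0 and 1 in unirradiated and 7 and 12 in irradiated KO, so its counts do not check the knockout label. Of the epithelial markers, Cdh1 had 39.2 to 78.5 CPM, whereas the keratin genes Krt8 and Krt18 and the claudin gene Cldn4 lay between 0 and 1.31 CPM in every library, so the epithelial label rests on few markers. The sum of 5 epithelial markers was 40.7 to 41.5 CPM in unirradiated and 76.3 to 79.2 in irradiated WT, and 48.3 to 51.4 in unirradiated and 78.9 to 80.3 in irradiated KO. The summed level of 10 macrophage markers was 9.41 to 9.87, 45.5 to 45.7, 17.8 to 19.6 and 72.2 to 82.1 CPM in that order, in irradiated cells most of it Cd68. C1qa had at most 1 read in any library. The sum of 7 fibroblast markers, mostly collagens, was 1088 to 1187, 1522 to 1691, 1494 to 1611 and 2416 to 2692 CPM. The sum of 5 endothelial markers was at most 13.1 CPM and that of 4 T cell markers at most 0.4 CPM. The part of these genes in the results below was not tested.

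Promoters are shown for the repair genes with the largest irradiation changes that have a window in the RefSeq table of GRCm38.p6: Dclre1c and Fancg, which rose, and Xrcc6 and Fancb, which fell. Each window holds 300 bases around a start of the gene in RefSeq, most of them before it, in the gene's own direction. Capitals mark an E2F site (TTTCCCGC, TTTGGCGC, TTTCGCGC or TTTGCCGC) and, in Fancg, an interferon response element (GAAANNGAA) that overlaps it, both searched on either strand.

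Dclre1c (chr2:3423881-3424180, plus strand): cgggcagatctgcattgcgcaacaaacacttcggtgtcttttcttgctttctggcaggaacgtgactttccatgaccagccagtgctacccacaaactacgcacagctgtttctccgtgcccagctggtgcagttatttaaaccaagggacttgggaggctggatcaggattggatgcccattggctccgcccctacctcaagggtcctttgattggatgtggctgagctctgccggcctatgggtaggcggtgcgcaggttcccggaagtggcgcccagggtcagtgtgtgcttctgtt
Fancg (chr4:43010252-43010551, minus strand): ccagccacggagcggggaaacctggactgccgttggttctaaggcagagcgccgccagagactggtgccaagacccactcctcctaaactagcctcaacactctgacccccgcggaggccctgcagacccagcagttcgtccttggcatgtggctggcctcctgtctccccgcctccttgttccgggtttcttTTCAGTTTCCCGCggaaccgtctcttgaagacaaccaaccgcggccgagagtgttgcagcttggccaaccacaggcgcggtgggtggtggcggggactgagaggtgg
Xrcc6 (chr15:82016119-82016418, plus strand): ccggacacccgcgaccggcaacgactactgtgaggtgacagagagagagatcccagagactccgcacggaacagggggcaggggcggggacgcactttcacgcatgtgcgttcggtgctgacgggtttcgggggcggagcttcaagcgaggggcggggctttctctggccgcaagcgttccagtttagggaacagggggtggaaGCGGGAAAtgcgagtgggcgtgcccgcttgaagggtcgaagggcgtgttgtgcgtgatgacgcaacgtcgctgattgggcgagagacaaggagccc
Fancb (chrX:164980342-164980641, plus strand): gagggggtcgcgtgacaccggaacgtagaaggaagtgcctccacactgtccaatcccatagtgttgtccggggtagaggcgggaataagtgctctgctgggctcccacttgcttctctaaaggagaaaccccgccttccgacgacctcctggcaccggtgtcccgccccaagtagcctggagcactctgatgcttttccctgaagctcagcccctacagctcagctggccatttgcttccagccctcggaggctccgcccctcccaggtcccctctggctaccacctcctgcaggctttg

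In Fancg the E2F site lay at -52 and the interferon element at -57 from the RefSeq start, and in Xrcc6 the E2F site lay at -46. The Xrcc6 window lies inside the span of the gene in the GENCODE annotation (81987835 to 82040085), which starts further upstream. The Dclre1c and Fancb windows held none of the 3 motifs searched, the third being the cell-cycle element CHR (TTTGAA). Of the 37 repair genes with a window, 9 held an E2F site, against 2.60% of 27025 genes in the table. These were Bard1, Brca2, Chek2, Clspn, Fancg, Mdc1, Rad51c, Topbp1 and Xrcc6. The CHR was in 4 of 37, against 20.2% of genes, and the interferon element in 7 of 37, against 9.76%. The 9 genes with an E2F site did not move as 1 group with irradiation, since Fancg, Chek2, Mdc1 and Topbp1 rose in WT and Xrcc6 fell. A match of letters is a description and not a binding site.

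Per kb of exon, the repair genes spanned a wide range of levels. The highest was H2afx, the gene of the histone variant H2AX, with a mean of 40.4 CPM per kb over the 8 libraries, followed by Mdc1 at 39.2, Rad50 at 32.3 and Topbp1 at 30.4. In irradiated cells the group mean of Mdc1 was above that of H2afx, at 54.8 against 35.9 in WT and 38.1 against 20.3 in KO. The lowest were Rnf8, the ubiquitin ligase that Mdc1 recruits, at 0.326, and Atrip, the Atr partner, at 0.088 CPM per kb. Atrip had 11 and 7 reads in unirradiated and 12 and 11 in irradiated WT, and 7 and 6 in unirradiated and 3 and 22 in irradiated KO, and its change could not be resolved at that depth (log2 0.37 ± 0.80 in WT). Of the exonic bases of Atrip, 16% also belong to Trex1. In all, 9 of the 48 share over 10% of their exonic bases with another annotated gene, namely Atrip, H2afx, Rnf8, Trp53bp1, Rad54l, Rad54b, Fanca, Fancc and Fanci, and 27 share none. The sources used here do not state the strand setting, or how reads in shared stretches were handled. Such reads may have gone to either gene or to neither. The overlaps of Atrip with Trex1, of Rnf8 with Gm28043 (13.2% of its exonic bases) and of Rad54b with Fsbp are on the same strand. Strand would not separate those genes.

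**Figure D1:**
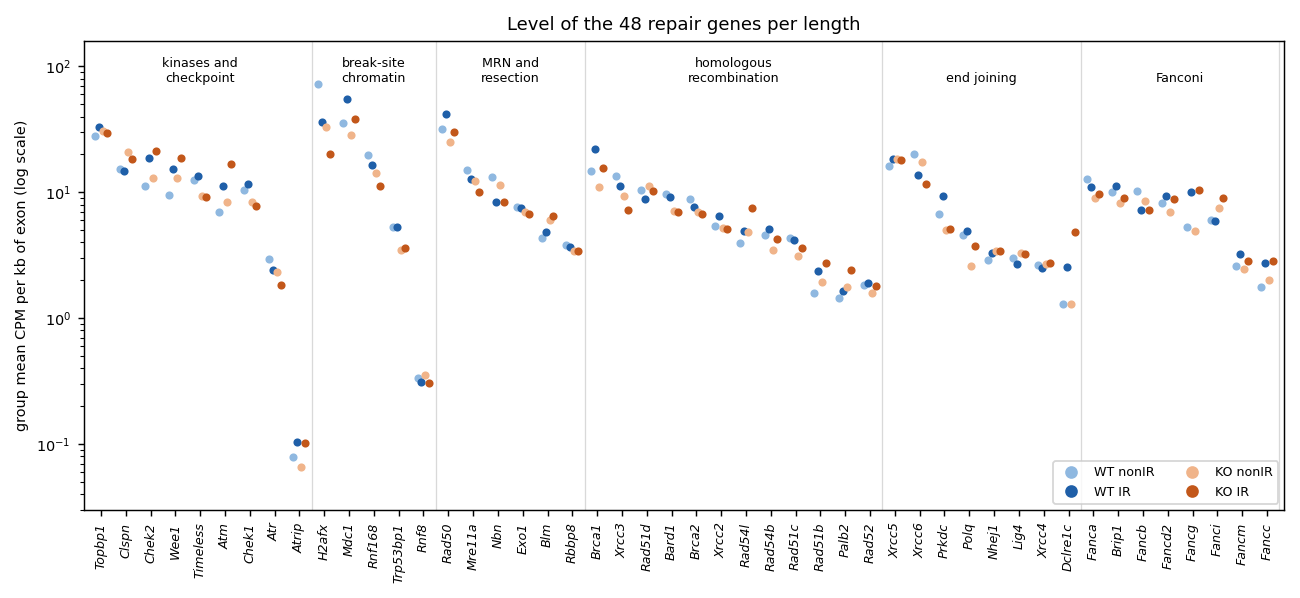
Group mean level in CPM per kb of exon, on a log axis, for each of the 48 repair genes, ordered by role and by mean level, with 1 point per group of 2 libraries. H2afx sits at the top with a mean of 40.4 and Atrip at the bottom with 0.088.

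The share of repair genes that irradiation changed was close to that of all genes. In WT, 12 of 48 rose and 8 fell (edgeR quasi-likelihood test, adjusted p under 0.05), which is 25% and 16.7% of them. Over all 14923 genes tested 20.4% rose and 18.4% fell, together 38.9%. In KO, 11 of 48 rose and 6 fell, against 21.1% and 18.6% of all genes, together 39.7%. The median log2 change of the 48 was 0.13 in WT and 0.05 in KO, and that of all genes 0.03 and 0.02. Of the 48, 9 rose in both lines, 5 fell in both, 6 were called in WT only and 3 in KO only, and 0 were called in opposite directions. The matching joint shares of all genes are not given here, so these counts only describe the 48. In bulk RNA, fewer cells of a type and less RNA per cell cannot be told apart. With the replicate number as a block, 19 rose and 11 fell in WT, against 30.6% and 29.9% of all genes, together 60.5%. In KO 18 rose and 9 fell with the block, against 30.6% and 29.6%, together 60.2%. With upper-quartile scaling in place of TMM, 14 rose and 4 fell in WT, against 23.1% and 15.9% of all genes under that scaling. The number lower in WT was 3 to 4 when any 1 of the 4 libraries compared was left out, where 11.6 to 13.2% of all genes were lower. The number lower in KO was 2 to 3 when any 1 of the 4 libraries compared was left out, where 11.8 to 13.1% of all genes were lower.

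**Figure D2:**
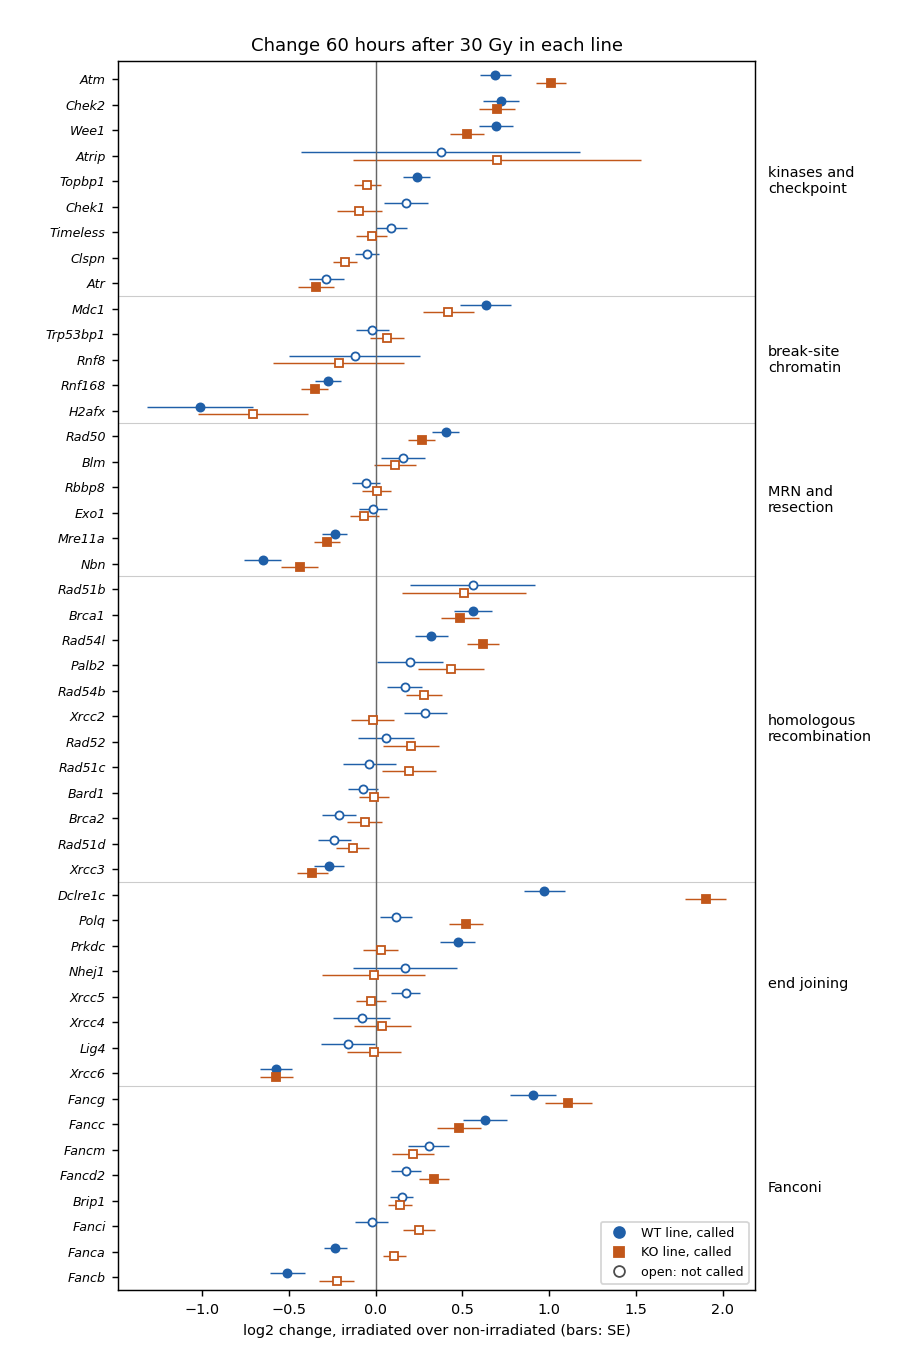
Log2 change from unirradiated to irradiated cells for the 48 repair genes by role, with circles for WT, squares for KO, bars of 1 SE and filled symbols for adjusted p under 0.05. Dclre1c has the highest change in both lines (0.97 in WT and 1.90 in KO), and H2afx the lowest (-1.01 and -0.71).

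Among the damage kinases, their partners and the checkpoint mediators, 4 of 9 rose and 0 fell in WT (44.4% and 0%, against 20.4% and 18.4% of all genes), and 3 rose and 1 fell in KO (33.3% and 11.1%, against 21.1% and 18.6% of all genes). Atm, the kinase at the head of the double-strand break signal (ENSMUSG00000034218, chromosome 9, 53439149 to 53536740, minus strand, mm10), had 66.1 and 77.95 CPM in unirradiated and 117 and 115 CPM in irradiated WT, and 87.9 and 84.1 in unirradiated and 173 and 173 in irradiated KO. All irradiated libraries lay above all unirradiated ones, with a log2 change of 0.69 ± 0.09 in WT (adjusted p = 0.000869) and 1.01 ± 0.09 in KO (0.000124). Chek2, the checkpoint kinase that Atm activates, had 35.6 and 32.1 CPM in unirradiated and 58.02 and 53.9 CPM in irradiated WT, and 39.9 and 38.6 in unirradiated and 68.5 and 58.8 in irradiated KO. It rose by 0.72 ± 0.10 and 0.70 ± 0.10 on the log2 scale (adjusted p = 0.00147 and 0.0016), and the irradiated and unirradiated libraries did not overlap. Wee1, the kinase that holds Cdk1 inactive before mitosis, had 31.7 and 32.9 CPM in unirradiated and 56.2 and 48.4 CPM in irradiated WT, and 45.3 and 44.4 in unirradiated and 67.1 and 62.1 in irradiated KO. Its log2 change was 0.69 ± 0.10 in WT (adjusted p = 0.0013) and 0.53 ± 0.10 in KO (0.00407), and every irradiated library was above every unirradiated one. Atr changed by -0.28 ± 0.10 in WT (adjusted p = 0.0567) and fell by 0.34 in KO (0.0304), and Chek1, the kinase that Atr activates, changed by 0.17 ± 0.13 and -0.09 ± 0.13, neither called. Topbp1, the activator of Atr, rose in WT (0.24 ± 0.08, adjusted p = 0.0432) and changed by -0.05 ± 0.08 in KO. The Atr signal mediators Clspn and Timeless changed by -0.05 and 0.09 in WT and by -0.18 and -0.02 in KO, none called. Atrip, the partner of Atr, had the widest errors of the 9 in each line, with changes of 0.37 ± 0.80 and 0.70 ± 0.83, neither called. With the replicate block, Atr was also called lower in WT (adjusted p = 0.000652), Chek1 higher in WT (0.0313) and Clspn lower in KO (0.00144). Topbp1 in WT (adjusted p 0.055 to 0.246) lost its call when any 1 of the 8 libraries was left out. Atr lost its call in KO when replicate 1 of unirradiated KO or either library of irradiated KO was left out (adjusted p 0.0843 to 0.136).

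Of the 5 break-site chromatin genes, 1 rose and 2 fell in WT (20% and 40%, against 20.4% and 18.4% of all genes), and 0 rose and 1 fell in KO (0% and 20%, against 21.1% and 18.6% of all genes). H2afx (ENSMUSG00000049932, chromosome 9, 44334694 to 44336077, plus strand) had 79.5 and 121 CPM in unirradiated and 38.97 and 60.5 CPM in irradiated WT, and 35.6 and 55.6 in unirradiated and 23.6 and 32.6 in irradiated KO. In every group replicate 2 was above replicate 1, and within each line the irradiated libraries were below the others. H2afx fell by 1.01 ± 0.31 in WT (adjusted p = 0.0334), and its change in KO was -0.71 ± 0.32 (0.115, or 1.53e-10 with the replicate block). Mdc1, the scaffold that reads phosphorylated H2AX, had 236 and 289 CPM in unirradiated and 374 and 439 CPM in irradiated WT, and 189 and 233 in unirradiated and 263 and 303 in irradiated KO. It rose by 0.63 ± 0.15 in WT (adjusted p = 0.012) and changed by 0.42 ± 0.15 in KO (0.0557, or 2.06e-11 with the block). Rnf168, the ubiquitin ligase that marks histones for the next recruits, fell in both lines (-0.27 ± 0.08 and -0.35 ± 0.08, adjusted p = 0.0237 and 0.00936). Trp53bp1, the 53BP1 protein that shields ends from resection, changed by -0.02 ± 0.10 and 0.06 ± 0.10, and Rnf8 by -0.12 ± 0.38 and -0.21 ± 0.38, none called. Rnf168 in WT (adjusted p 0.0549 to 0.116) lost its call when any 1 of the 4 libraries compared was left out. H2afx lost its call in WT when replicate 2 of unirradiated WT or replicate 1 of irradiated WT was left out (adjusted p 0.155 to 0.175). Mdc1 lost its call in WT when replicate 1 of unirradiated WT or replicate 2 of irradiated WT was left out (adjusted p 0.0698 to 0.0831). Rnf168 lost its call in KO when replicate 2 of unirradiated KO was left out (adjusted p = 0.0507).

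The 3 genes of the MRN complex, which binds ends and activates Atm, did not move together. Rad50, its ATPase, rose in both lines (0.40 ± 0.08 in WT and 0.27 ± 0.08 in KO, adjusted p = 0.0053 and 0.0294), whereas its nuclease Mre11a fell (-0.23 ± 0.07 and -0.28 ± 0.07, 0.0348 and 0.0184). Nbn, the subunit that brings Atm to the complex, had 36.1 and 30.6 CPM in unirradiated and 20.6 and 21.9 CPM in irradiated WT, and 28.7 and 28.9 in unirradiated and 21.9 and 20.7 in irradiated KO. All irradiated libraries were below all unirradiated ones, and Nbn fell by 0.65 ± 0.11 in WT (adjusted p = 0.00263) and 0.44 ± 0.11 in KO (0.0145). The resection genes Rbbp8, which encodes CtIP, Exo1, an exonuclease, and Blm, a helicase, were called in neither line, with log2 changes from -0.06 to 0.16. Mre11a in KO (adjusted p 0.0594 to 0.0881) lost its call when any 1 of the 4 libraries compared was left out. Mre11a lost its call in WT when any 1 library other than both libraries of unirradiated KO and replicate 2 of irradiated KO was left out (adjusted p 0.0539 to 0.17). Rad50 lost its call in KO when any 1 library other than replicate 1 of irradiated WT and replicate 1 of irradiated KO was left out (adjusted p 0.0538 to 0.205). Nbn lost its call in KO when replicate 2 of unirradiated KO or replicate 2 of irradiated KO was left out (adjusted p 0.0568 to 0.0687).

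Of the 12 homologous recombination genes, Brca1 and Rad54l rose and Xrcc3 fell in both lines, and the other 9 were called in neither without the block, so that each line had 2 higher and 1 lower (16.7% and 8.33%, against 20.4% and 18.4% of all genes in WT and 21.1% and 18.6% in KO). With it the counts were 4 higher and 3 lower in WT and 5 higher and 1 lower in KO, against 30.6% and 29.9% of all genes in WT and 30.6% and 29.6% in KO. The calls it added include Brca2 (-0.21, blocked adjusted p = 0.000253), Rad51b (0.56, blocked adjusted p = 0.00383) and Xrcc2 (0.29, blocked adjusted p = 0.00624) in WT and Palb2 (0.44, blocked adjusted p = 0.00201), Rad51b (0.51, blocked adjusted p = 0.00833) and Rad54b (0.28, blocked adjusted p = 0.0161) in KO. Brca1, which promotes resection, had 116 and 138 CPM in unirradiated and 174 and 201 CPM in irradiated WT, and 92.4 and 97.1 in unirradiated and 128 and 138 in irradiated KO. Its log2 change was 0.56 ± 0.11 in WT (adjusted p = 0.00585) and 0.49 ± 0.11 in KO (0.0108), and within each line the groups did not overlap. Bard1, the partner that Brca1 needs for stability, changed by -0.07 ± 0.09 and -0.01 ± 0.09, and Brca2, the partner of Palb2, by -0.21 ± 0.10 and -0.06 ± 0.10. Rad54l, a DNA motor protein of homologous recombination, had 32.6 and 28.7 CPM in unirradiated and 38.3 and 38.2 CPM in irradiated WT, and 35.7 and 39.1 in unirradiated and 56.95 and 58.1 in irradiated KO. It rose by 0.32 ± 0.09 in WT (adjusted p = 0.0298) and 0.62 ± 0.09 in KO (0.00169), and the irradiated KO libraries were the highest of the 8. Of its exonic bases 15.4% overlap Lrrc41 on the other strand. Xrcc3 fell by 0.27 ± 0.09 and 0.36 ± 0.09 (adjusted p = 0.0442 and 0.0153). The 9 genes not called without the block had log2 changes from -0.24 to 0.56 in WT and -0.13 to 0.51 in KO, the highest being Rad51b with an SE of 0.36. Xrcc3 in WT (adjusted p 0.0565 to 0.188) lost its call when any 1 of the 8 libraries was left out. Rad54l lost its call in WT when any 1 library other than replicate 1 of unirradiated WT and both libraries of unirradiated KO was left out (adjusted p 0.0534 to 0.175). Brca1 lost its call in KO when replicate 1 of unirradiated KO or replicate 2 of irradiated KO was left out (adjusted p 0.0643 to 0.069). Xrcc3 lost its call in KO when replicate 1 of unirradiated KO or either library of irradiated KO was left out (adjusted p 0.05003 to 0.0914).

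End joining held the repair gene with the highest change. Dclre1c encodes Artemis, the nuclease that opens hairpins and trims ends for joining (ENSMUSG00000026648, chromosome 2, 3424131 to 3464130, plus strand), and its promoter is the first of those printed above. It had 12.6 and 11.4 CPM in unirradiated and 24.97 and 22.3 CPM in irradiated WT, and 12.1 and 12.2 in unirradiated and 48.5 and 42.3 in irradiated KO. The unirradiated libraries of both lines were alike, and irradiated KO lay above irradiated WT without overlap. The log2 change was 0.97 ± 0.12 in WT (adjusted p = 0.00066) and 1.90 ± 0.12 in KO (2.19e-05). Prkdc, the kinase DNA-PKcs that works with Artemis, had 80.1 and 96.2 CPM in unirradiated and 118 and 127 CPM in irradiated WT, and 66.5 and 66.7 in unirradiated and 65.8 and 69.97 in irradiated KO. The 2 irradiated WT libraries were the highest and the 4 KO libraries the lowest and close together. It rose in WT (0.47 ± 0.10, adjusted p = 0.00782) and changed by 0.03 ± 0.10 in KO (0.855). Polq, the polymerase of microhomology end joining, had 44.1 and 44.5 CPM in unirradiated and 46.5 and 49.6 CPM in irradiated WT, and 23.5 and 27.1 in unirradiated and 36.7 and 36.2 in irradiated KO. It rose in KO (0.52 ± 0.10, adjusted p = 0.00424), from the lowest level of the 4 groups, and changed by 0.12 ± 0.09 in WT (0.355). The 2 genes of the Ku ring, which slides onto the ends first, differed. Xrcc6, the Ku70 gene (ENSMUSG00000022471, chromosome 15, 81987835 to 82040085, plus strand), had 97.6 and 84.2 CPM in unirradiated and 62.9 and 59.2 CPM in irradiated WT, and 75.3 and 79.2 in unirradiated and 53.3 and 50.7 in irradiated KO, and every irradiated library was below every unirradiated one. It fell by 0.57 ± 0.09 in WT and 0.57 ± 0.09 in KO (adjusted p = 0.00249 and 0.00251). Xrcc5, the Ku80 gene, changed by 0.17 ± 0.09 and -0.03 ± 0.09, neither called without the block, and was called higher in WT with it (adjusted p = 0.048). Per kb of exon, the group mean level of Xrcc6 went from 20.3 to 13.6 CPM in WT while that of Xrcc5 was 16.3 and 18.3. The ligation genes Lig4, Xrcc4 and Nhej1 were called in neither line, with log2 changes from -0.16 to 0.17. Prkdc lost its call in WT when replicate 1 of unirradiated WT or replicate 2 of irradiated WT was left out (adjusted p 0.0513 to 0.0556).

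In the Fanconi anaemia pathway, Fancg and Fancc, both subunits of the core ubiquitin ligase complex, rose in both lines. Of the 8 genes, 2 rose and 2 fell in WT (25% and 25%, against 20.4% and 18.4% of all genes), and 3 rose and 0 fell in KO (37.5% and 0%, against 21.1% and 18.6% of all genes). The counts with the block were 5 higher and 2 lower in WT, against 30.6% and 29.9% of all genes with the block. In KO they were 6 higher and 1 lower, against 30.6% and 29.6%. Fancg (ENSMUSG00000028453, chromosome 4, 43002343 to 43010506, minus strand) had 21.3 and 19.4 CPM in unirradiated and 42.1 and 34.3 CPM in irradiated WT, and 20.2 and 16.9 in unirradiated and 39.8 and 39.8 in irradiated KO, and changed by 0.91 ± 0.13 in WT (adjusted p = 0.00156) and 1.11 ± 0.13 in KO (0.000603). Within each line its irradiated and unirradiated libraries did not overlap. Fancc had 14.1 and 15.6 CPM in unirradiated and 23.6 and 22.2 CPM in irradiated WT, and 18.05 and 15.9 in unirradiated and 25.6 and 21.7 in irradiated KO, again without overlap within a line, and a log2 change of 0.63 ± 0.13 and 0.48 ± 0.13 (adjusted p = 0.00679 and 0.0194). Of its exonic bases 18.6% overlap other genes on the opposite strand. Another core subunit, Fancb, fell in WT. It had 31.5 and 30.1 CPM in unirradiated and 22.4 and 20.8 CPM in irradiated WT, and 26.3 and 24.3 in unirradiated and 22.7 and 20.5 in irradiated KO, the irradiated libraries of each line lying below the others, with a change of -0.51 ± 0.10 in WT (adjusted p = 0.00599) and -0.22 ± 0.10 in KO (0.119, or 0.0439 with the block). Fanca, also of the core, fell in WT (-0.23 ± 0.07, 0.0249) and changed by 0.11 ± 0.07 in KO (0.239). Of the 2 proteins that the core complex modifies, Fancd2 rose in KO (0.34 ± 0.09, adjusted p = 0.0167) and changed by 0.17 ± 0.08 in WT, and Fanci changed by 0.25 ± 0.09 and -0.02 ± 0.09, neither called. The translocase gene Fancm and the helicase gene Brip1 changed by 0.31 and 0.15 in WT and by 0.22 and 0.14 in KO, none called. The block added calls higher for Fancd2 (0.17, blocked adjusted p = 0.0129), Fancm (0.31, blocked adjusted p = 0.00567) and Brip1 (0.15, blocked adjusted p = 0.0208) in WT, and for Fanci (0.25, blocked adjusted p = 0.00578), Fancm (0.22, blocked adjusted p = 0.0497) and Brip1 (0.14, blocked adjusted p = 0.0448) in KO. Fanca in WT (adjusted p 0.0813 to 0.1) and Fancd2 in KO (adjusted p 0.0556 to 0.0874) lost their calls when any 1 of the 4 libraries compared was left out. Fancc lost its call in WT when replicate 1 of unirradiated WT was left out (adjusted p = 0.0537). Fancc lost its call in KO when replicate 2 of unirradiated KO or replicate 1 of irradiated KO was left out (adjusted p 0.121 to 0.124).

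**Figure D3:**
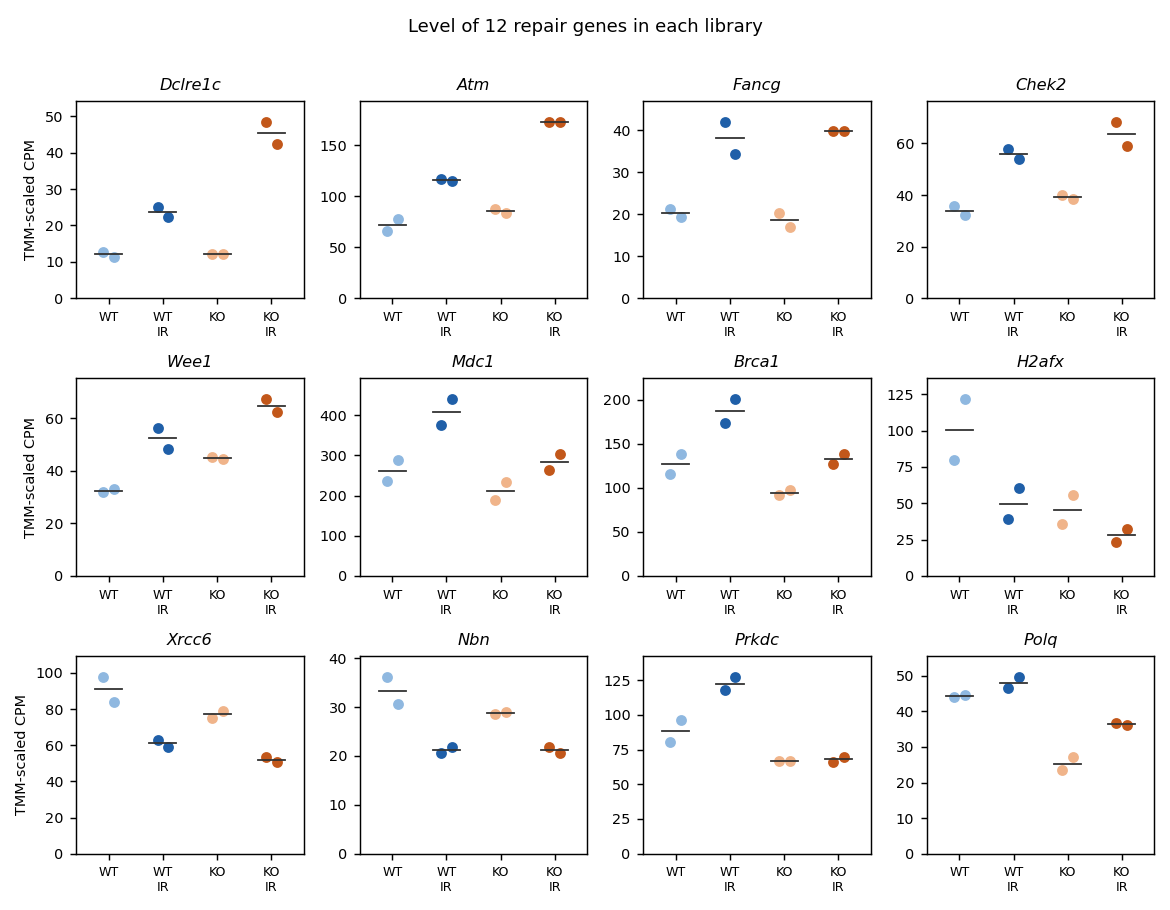
TMM-scaled CPM of 12 repair genes in each of the 8 libraries, as points, with a bar at the mean of each group of 2. Each vertical axis starts at 0, and the groups are unirradiated and irradiated WT and KO. Irradiated KO is highest for Dclre1c (48.5 and 42.3) and Atm (173 and 173), and H2afx differs between replicates in every group.

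Between the lines, repair genes were lower in KO more often than higher. Without irradiation 15 of 48 were lower and 3 higher, 31.2% and 6.25% of them, against 9.49% and 10.4% of all genes, together 19.9%. After irradiation 14 were lower and 6 higher, 29.2% and 12.5%, against 11.4% and 13.3%, together 24.6%. The median log2 difference of the 48, KO over WT, was -0.22 without and -0.12 after irradiation, and that of all genes -0.01 and -0.01. Of the 48, 11 were lower in both states and 2 were higher in both, 5 were called only without irradiation and 7 only after it, and 0 were called in opposite directions. Both states compare the same 2 lines, and the joint shares of all genes are not given here, so these counts only describe the 48. With the replicate block the counts were 22 lower and 8 higher without irradiation, against 23.5% and 21.4% of all genes, together 44.9%, and 22 lower and 10 higher after it, against 25.2% and 25.2%, together 50.4%. In a fit of the 2 unirradiated groups alone, 8 were lower, against 6.18% of all genes in that fit. The number higher without irradiation was 1 when replicate 1 of unirradiated WT or either library of unirradiated KO was left out, where 5.38 to 6.12% of all genes were higher. The number lower without irradiation was 5 to 8 when any 1 of the 4 libraries compared was left out, where 4.34 to 5.01% of all genes were lower. The number lower after irradiation was 6 to 7 when any 1 of the 4 libraries compared was left out, where 5.11 to 6.19% of all genes were lower.

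Medians of the line difference over all tested genes differed between chromosomes. The median log2 difference was 0.37 without and 0.38 after irradiation on chromosome 7, -0.32 and -0.36 on chromosome 16, and 0.38 and 0.40 on chromosome 18. The 4 repair genes on chromosome 7, Blm, Wee1, Fanci and Palb2, were above 0 in both states, and the 3 on chromosome 16, Rnf168, Prkdc and Polq, below it. Rbbp8, the 1 repair gene on chromosome 18, lay on the other side of 0 from its chromosome's median (-0.17 ± 0.08 and -0.11 ± 0.08, neither called). Of these 8 genes Rbbp8 lay furthest from its chromosome's median in both states (-0.55 and -0.51 relative to it), followed by Polq without irradiation (-0.48) and Prkdc after it (-0.49). The part of the chromosome in these results was not tested.

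**Figure D4:**
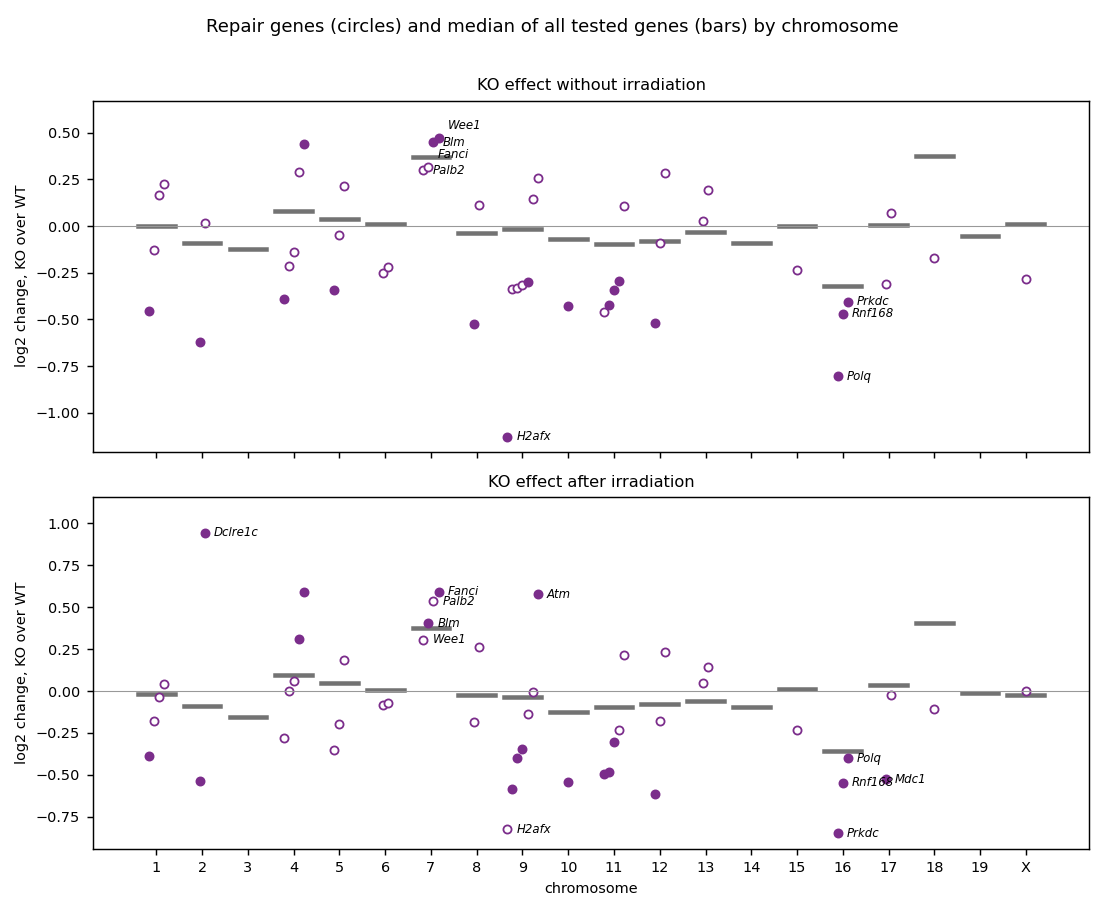
Log2 difference of KO over WT for each of the 48 repair genes (circles, filled where adjusted p was under 0.05) and the median of all tested genes (grey bars) by chromosome, without irradiation in the upper and after irradiation in the lower panel. The medians of chromosome 7 (0.37 and 0.38) and chromosome 16 (-0.32 and -0.36) stand off 0 to opposite sides, and the repair genes on them lie on the same side as the median. Rbbp8 on chromosome 18 (-0.17 and -0.11) lies on the opposite side from its median (0.38 and 0.40).

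Of the 9 kinases, partners and checkpoint genes, 2 were higher and 1 lower in KO without irradiation (22.2% and 11.1%, against 10.4% and 9.49% of all genes), and 2 and 3 after it (22.2% and 33.3%, against 13.3% and 11.4% of all genes). The block gave 5 higher and 3 lower without irradiation, against 21.4% and 23.5% of all genes with the block. After irradiation it gave 4 higher and 4 lower, against 25.2% and 25.2%. Clspn, which holds Chek1 near Atr, was higher in KO in both states (0.44 ± 0.07 and 0.31 ± 0.07, adjusted p = 0.00432 and 0.0138), while Timeless, a fork protein of the same signal, was lower in both. Timeless had 73.4 and 80.4 CPM in unirradiated and 80.2 and 83.5 CPM in irradiated WT, and 54.2 and 59.8 in unirradiated and 54.1 and 58.3 in irradiated KO, with differences of -0.43 ± 0.09 (adjusted p = 0.014) and -0.54 ± 0.09 (0.00405). All its KO libraries were below all WT libraries. Chek1 had 52.4 and 43.6 CPM in unirradiated and 56.6 and 51.8 CPM in irradiated WT, and 40.9 and 36.5 in unirradiated and 39.1 and 33.3 in irradiated KO, also without overlap between the lines. It differed by -0.32 ± 0.13 without irradiation (0.127, or 0.000866 with the block) and was lower after it (-0.58 ± 0.13, 0.0138). Atr was also lower after irradiation (-0.40 ± 0.10, 0.0252). Atm was higher in irradiated KO than in irradiated WT (0.58 ± 0.09, adjusted p = 0.00286) and differed by 0.26 ± 0.09 without irradiation (0.0849, or 0.000368 with the block). Wee1, on chromosome 7, was higher without irradiation (0.47 ± 0.10, 0.0141) and differed by 0.31 ± 0.10 after it (0.0526, or 0.000286 with the block). Also called with the block were Atr (-0.34, blocked adjusted p = 7.55e-05), Topbp1 (0.14, blocked adjusted p = 0.0039) and Chek2 (0.21, blocked adjusted p = 0.0186) without irradiation, and Topbp1 (-0.14, blocked adjusted p = 0.00461) and Chek2 (0.19, blocked adjusted p = 0.0238) after it. Wee1 without irradiation (adjusted p 0.057 to 0.0841), Clspn after irradiation (adjusted p 0.051 to 0.0997) and Atr after irradiation (adjusted p 0.0557 to 0.132) lost their calls when any 1 of the 4 libraries compared was left out. Timeless lost its call without irradiation when replicate 2 of unirradiated WT or replicate 1 of unirradiated KO was left out (adjusted p 0.0892 to 0.092). Chek1 lost its call after irradiation when replicate 1 of irradiated WT or replicate 2 of irradiated KO was left out (adjusted p 0.0761 to 0.106).

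The break-site chromatin genes had 3 of 5 lower in KO in each state and 0 higher. That is 60%, against 9.49% of all genes without and 11.4% after irradiation. Trp53bp1 had 73.1 and 78.3 CPM in unirradiated and 71.2 and 78.2 CPM in irradiated WT, and 45.99 and 52.2 in unirradiated and 49.7 and 53.1 in irradiated KO, with every KO library below every WT library. Its difference was -0.62 ± 0.10 without (adjusted p = 0.00436) and -0.54 ± 0.10 after irradiation (0.00596). Of its exonic bases 15% overlap Tubgcp4 on the other strand. Rnf168, on chromosome 16, had 86.5 and 90.8 CPM in unirradiated and 72.3 and 74.3 CPM in irradiated WT, and 61.5 and 66.4 in unirradiated and 51.04 and 49.4 in irradiated KO, with differences of -0.47 ± 0.08 and -0.55 ± 0.08 (adjusted p = 0.00531 and 0.0021). Here too every KO library was below every WT library of the same treatment. H2afx was lower in unirradiated KO (-1.13 ± 0.31, 0.0389) and differed by -0.82 ± 0.31 after irradiation (0.098, or 1.78e-12 with the block). Mdc1 was lower in KO after irradiation (-0.52 ± 0.15, 0.0365) and differed by -0.31 ± 0.15 without it (0.187, or 7.94e-08 with the block). Mdc1 after irradiation (adjusted p 0.0608 to 0.197) lost its call when any 1 of the 4 libraries compared was left out. H2afx lost its call without irradiation when replicate 2 of unirradiated WT or either library of unirradiated KO was left out (adjusted p 0.0507 to 0.188). Trp53bp1 lost its call after irradiation when replicate 1 of irradiated KO was left out (adjusted p = 0.0513).

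In the MRN complex, Rad50 and Mre11a were lower in KO in both states. The differences of Rad50 were -0.34 ± 0.08 and -0.48 ± 0.08 (adjusted p = 0.02 and 0.00378), and those of Mre11a -0.30 ± 0.07 and -0.35 ± 0.07 (0.0242 and 0.0117). Nbn differed by -0.21 ± 0.11 and 0.00 ± 0.11, neither called. Blm, on chromosome 7, was higher in both states (0.45 ± 0.12 and 0.41 ± 0.12, 0.0404 and 0.0477). Of the 6 genes of the complex and of resection, 2 were lower and 1 higher without irradiation (33.3% and 16.7%, against 9.49% and 10.4% of all genes), and 2 and 1 after it (33.3% and 16.7%, against 11.4% and 13.3% of all genes). With the block Exo1 was also lower after irradiation (-0.18, adjusted p = 0.0196). Rad50 without irradiation (adjusted p 0.0668 to 0.118) and Mre11a after irradiation (adjusted p 0.0512 to 0.0763) lost their calls when any 1 of the 4 libraries compared was left out. Mre11a lost its call without irradiation when any 1 library other than replicate 1 of irradiated WT and replicate 1 of irradiated KO was left out (adjusted p 0.0507 to 0.14). Blm lost its call without irradiation when any 1 library other than both libraries of irradiated KO was left out (adjusted p 0.0524 to 0.198). Blm lost its call after irradiation when any 1 library other than replicate 1 of irradiated KO was left out (adjusted p 0.0529 to 0.268).

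Homologous recombination had 5 of 12 lower in KO without irradiation, namely Brca1, Bard1, Brca2, Xrcc3 and Rad54b, and 0 higher (41.7% and 0%, against 9.49% and 10.4% of all genes). After irradiation 3 were lower and 1 higher (25% and 8.33%, against 11.4% and 13.3% of all genes). The block gave 1 higher and 6 lower without irradiation, against 21.4% and 23.5% of all genes with the block. After irradiation it gave 3 higher and 6 lower, against 25.2% and 25.2%. Brca1 and Bard1, which act as a pair, differed by -0.42 ± 0.11 and -0.45 ± 0.09 (adjusted p = 0.0335 and 0.0107), and after irradiation by -0.50 ± 0.11 and -0.39 ± 0.09 (0.0144 and 0.0154). Xrcc3 had 38.2 and 35.4 CPM in unirradiated and 31.2 and 30.02 CPM in irradiated WT, and 26.3 and 25.2 in unirradiated and 19.5 and 20.4 in irradiated KO, with differences of -0.52 ± 0.09 and -0.61 ± 0.09 (adjusted p = 0.00643 and 0.0024). In Xrcc3 every KO library was below every WT library of the same treatment. Brca2 and Rad54b were called only without irradiation (-0.34 ± 0.10 and -0.39 ± 0.10, 0.0478 and 0.035), and with the block also after it (0.00109 and 0.0109). Rad54l was higher in KO after irradiation (0.59 ± 0.09, adjusted p = 0.00347) and differed by 0.29 ± 0.09 without it (0.0697, or 0.00387 with the block). Calls added by the block include Rad51c (-0.46, blocked adjusted p = 0.0031) without irradiation, and Palb2 (0.53, blocked adjusted p = 0.000302) and Xrcc2 (-0.35, blocked adjusted p = 0.00117) after it. Brca2 without irradiation (adjusted p 0.0503 to 0.221) lost its call when any 1 of the 8 libraries was left out. Bard1 after irradiation (adjusted p 0.0548 to 0.119) lost its call when any 1 of the 4 libraries compared was left out. Brca1 lost its call without irradiation when replicate 2 of unirradiated WT, either library of unirradiated KO or replicate 1 of irradiated KO was left out (adjusted p 0.0506 to 0.178). Bard1 lost its call without irradiation when replicate 1 of unirradiated WT or replicate 1 of unirradiated KO was left out (adjusted p 0.0626 to 0.0742). Xrcc3 lost its call without irradiation when replicate 1 of unirradiated WT or replicate 2 of unirradiated KO was left out (adjusted p 0.0508 to 0.0525). Rad54b lost its call without irradiation when any 1 library other than replicate 1 of irradiated KO was left out (adjusted p 0.0549 to 0.171). Brca1 lost its call after irradiation when replicate 2 of irradiated WT or replicate 1 of irradiated KO was left out (adjusted p 0.0794 to 0.0966).

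In end joining, Polq and Prkdc, both on chromosome 16, were lower in KO in both states. Polq differed by -0.80 ± 0.10 without irradiation (adjusted p = 0.0014) and -0.40 ± 0.09 after it (0.0182). Prkdc differed by -0.40 ± 0.10 (0.0281) and -0.85 ± 0.10 (0.000902). Dclre1c differed by 0.01 ± 0.12 without irradiation (0.962) and was higher in KO after it (0.94 ± 0.11, 0.000952), and chromosome 2, where it lies, had a median of -0.09. Of the 8 end-joining genes, 2 were lower and 0 higher without irradiation (25% and 0%, against 9.49% and 10.4% of all genes), and 2 and 1 after it (25% and 12.5%, against 11.4% and 13.3% of all genes). Xrcc6 differed by -0.23 ± 0.09 and -0.23 ± 0.09, called lower with the block only (0.00225 and 0.00306). Of the Fanconi genes, Fanca had 112 and 113 CPM in unirradiated and 95.5 and 96.5 CPM in irradiated WT, and 76.6 and 80.1 in unirradiated and 84.1 and 84.7 in irradiated KO, and was lower in KO without irradiation (-0.52 ± 0.07, 0.00177). After irradiation it differed by -0.19 ± 0.07 (0.0774, or 0.0024 with the block). Every KO library of Fanca was below every WT library. Fanci, on chromosome 7, had 37.2 and 32.4 CPM in unirradiated and 33.5 and 35.05 CPM in irradiated WT, and 43.6 and 43.3 in unirradiated and 53.3 and 49.99 in irradiated KO, and was higher in KO after irradiation (0.59 ± 0.09, 0.00357). Every KO library of Fanci was above every WT library, and part of its exons overlaps Polg. Brip1 was lower in both states (-0.30 ± 0.07 and -0.31 ± 0.07, 0.0208 and 0.0143). Of the 8 Fanconi genes, 2 were lower and 0 higher without irradiation (25% and 0%, against 9.49% and 10.4% of all genes), and 1 and 1 after it (12.5% and 12.5%, against 11.4% and 13.3% of all genes). The block gave 1 higher and 4 lower without irradiation, against 21.4% and 23.5% of all genes with the block. After irradiation it gave 1 higher and 2 lower, against 25.2% and 25.2%. The added calls without irradiation were Fancb (-0.29, blocked adjusted p = 0.0118), Fancd2 (-0.25, blocked adjusted p = 0.00108) and Fanci (0.32, blocked adjusted p = 0.00111). Fancg and Fancc, which rose with irradiation, were not called between the lines in either state. Polq after irradiation (adjusted p 0.0572 to 0.0995) and Brip1 after irradiation (adjusted p 0.0568 to 0.0978) lost their calls when any 1 of the 4 libraries compared was left out. Prkdc lost its call without irradiation when replicate 2 of unirradiated WT or either library of unirradiated KO was left out (adjusted p 0.113 to 0.148). Brip1 lost its call without irradiation when any 1 library other than both libraries of irradiated WT and replicate 1 of irradiated KO was left out (adjusted p 0.0511 to 0.109).

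Whether irradiation acted differently in KO was tested as an interaction, the change in KO less the change in WT. It was called for 1 of 48 repair genes, Dclre1c, which was higher, against 1.37% of all genes higher, 0.57% lower and 1.94% in all. Its value was 0.93 ± 0.17 (adjusted p = 0.0371, or 1.79e-05 with the block). Without any 1 of the 8 libraries the call was lost (adjusted p 0.0741 to 0.176), with values of 0.82 to 1.03. With the block, 5 repair genes were higher and 3 lower, against 8.15% and 8.55% of all genes, 16.7% in all. The higher ones were Dclre1c, Atm (0.32, blocked adjusted p = 0.00188), Polq (0.40, 0.0134), Fanca (0.34, 0.000632) and H2afx (0.30, 0.0223). The lower ones were Prkdc (-0.44, 7.54e-05), Topbp1 (-0.28, 0.000364) and Mdc1 (-0.21, 0.00929). The number of repair genes called with the block was close to the share of all genes. The interaction values of Dclre1c and Prkdc had opposite signs in these libraries, that of Prkdc being called with the block only.

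Among 77 other genes of the same pathways, 11 rose and 21 fell with irradiation in WT (14.3% and 27.3%, against 20.4% and 18.4% of all genes), and 13 rose and 21 fell in KO (16.9% and 27.3%, against 21.1% and 18.6% of all genes). The 77 had medians of -0.12 and -0.14. By role, in WT, 7 rose and 5 fell of 24 other recombination and resection genes, 0 and 5 of 12 break-site chromatin genes, 0 and 4 of 14 Fanconi and crosslink genes, 3 and 4 of 13 end-joining genes, and 1 and 3 of 14 checkpoint genes. The 3 that fell most in WT were Dna2 (-1.29 ± 0.13), Rif1 (-1.07 ± 0.07) and Tdp1 (-1.07 ± 0.09). Dna2 is a resection nuclease, Rif1 the effector of 53BP1 that blocks resection, and Tdp1 frees ends from trapped topoisomerase. The 3 that rose most in WT were Aplf (0.64 ± 0.11), Wrn (0.60 ± 0.07) and Parp3 (0.59 ± 0.09), a histone chaperone of end joining, the Werner helicase and a break-sensing ADP-ribosyltransferase. In KO, Dna2 (-1.49 ± 0.13), Rif1 (-1.20 ± 0.07) and Usp1 (-1.02 ± 0.12) fell most and Top3a (1.15 ± 0.08), Parp3 (0.84 ± 0.09) and Eme1 (0.73 ± 0.11) rose most. Usp1 removes ubiquitin from Fancd2, Top3a is the topoisomerase that works with Blm, and Eme1 is a subunit of a junction nuclease. Between the lines, 3 were higher and 15 lower in KO without irradiation (3.90% and 19.5%, against 10.4% and 9.49% of all genes), and 5 and 17 after it (6.49% and 22.1%, against 13.3% and 11.4% of all genes). Without irradiation Rad9a (-0.75 ± 0.11), Faap100 (-0.69 ± 0.19) and Slx4 (-0.63 ± 0.11) were lowest and Faap24 (0.72 ± 0.21), Slx1b (0.66 ± 0.19) and Cdc25c (0.53 ± 0.10) highest among those called. After it Faap100 (-0.82 ± 0.20), Rad9a (-0.64 ± 0.11) and Rif1 (-0.63 ± 0.07) were lowest and Rnf169 (0.68 ± 0.12), Ercc1 (0.61 ± 0.14) and Top3a (0.56 ± 0.08) highest. Top3a was the only one of the 77 with a called interaction in this fit (0.75 ± 0.11, adjusted p = 0.0156).

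Cell-cycle genes were read beside the repair genes, and their part in the repair results was not tested. Of 23 S phase genes, 3 rose and 8 fell with irradiation in WT (13.04% and 34.8%, against 20.4% and 18.4% of all genes), and 2 rose and 12 fell in KO (8.70% and 52.2%, against 21.1% and 18.6% of all genes). Their median log2 change was -0.02 and -0.29. In KO against WT, 15 were lower and 1 higher without irradiation (65.2% and 4.35%, against 9.49% and 10.4% of all genes), and 16 lower and 2 higher after it (69.6% and 8.70%, against 11.4% and 13.3% of all genes), with medians of -0.30 and -0.56. Of 22 G2/M genes, 15 rose and 0 fell with irradiation in WT (68.2% and 0%, against 20.4% and 18.4% of all genes), and 14 rose and 1 fell in KO (63.6% and 4.55%, against 21.1% and 18.6% of all genes), with medians of 0.43 and 0.38. In KO against WT, 2 were lower and 1 higher without irradiation (9.09% and 4.55%, against 9.49% and 10.4% of all genes), which is close to or below the share of all genes, and 8 lower and 0 higher after it (36.4% and 0%, against 11.4% and 13.3% of all genes). Of 12 E2F and DREAM regulators, which govern cell-cycle transcription, 2 rose and 4 fell in WT (16.7% and 33.3%, against 20.4% and 18.4% of all genes) and 3 rose and 3 fell in KO (25% and 25%, against 21.1% and 18.6% of all genes), with medians of -0.02 and -0.00. In KO against WT, 2 were lower and 1 higher in each state (16.7% and 8.33%). Of all genes, 9.49% were lower and 10.4% higher without irradiation, and 11.4% and 13.3% after it.

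**Figure D5:**
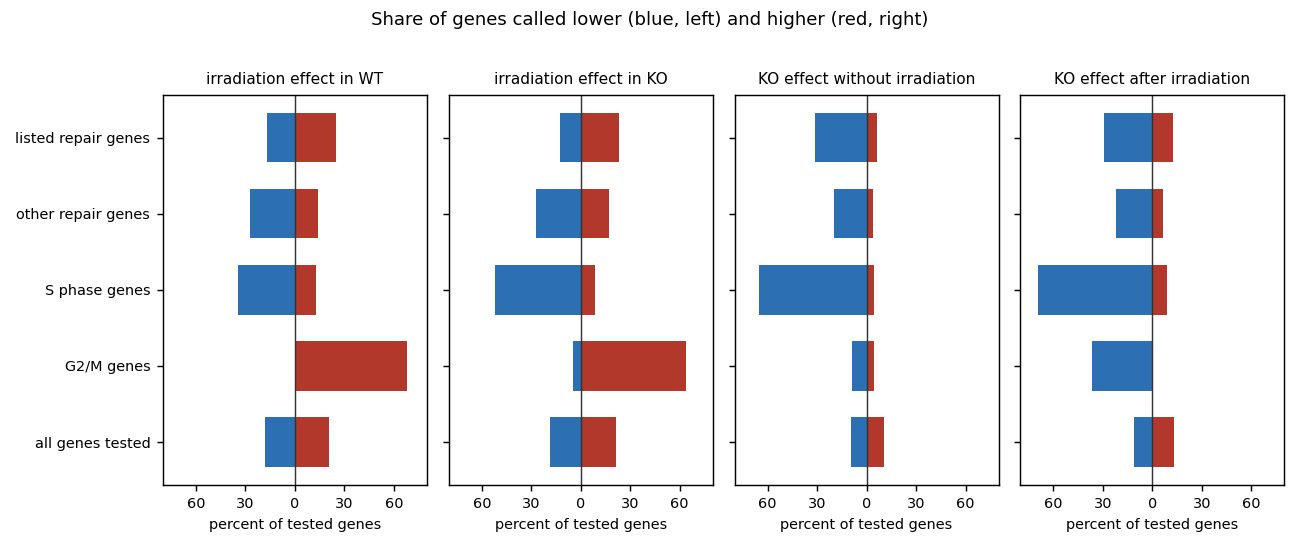
Percent of genes called lower (blue, to the left) and higher (red, to the right) in each of 4 comparisons, for the 48 listed repair genes, 77 other repair genes, 23 S phase genes, 22 G2/M genes and all 14923 genes tested. With irradiation in WT, 25% of the listed repair genes were higher against 20.4% of all genes, and in KO without irradiation 31.2% were lower against 9.49%.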

How the data were processed

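RNA-seq counts per gene were deposited by the authors as 1 table of 8 libraries. Alignment and counting used HISAT2, HISAT and HTSeq on mm10, with DESeq2 also named, per the submitters' processing notes; the sources used here give no versions, annotation or strand setting. The counts are whole numbers and were used as deposited, with library totals from 10971004 to 19887180.

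Genes were kept with edgeR's filterByExpr (minimum count 10, minimum total 15), which left 14923 of 29079. The main fit was edgeR 4.0.16 in R 4.3.3 with TMM factors and the quasi-likelihood test over all 8 libraries, 1 coefficient for each of 4 groups, 4 residual degrees of freedom, two-sided, with Benjamini-Hochberg adjustment over all genes tested. A gene is called at an adjusted p under 0.05. The SE is the log2 change divided by the square root of its F. DESeq2 1.42.0 was an alternative, and the fit was tested on simulated data. Alternatives were 2 other scalings, no filter, DESeq2, a replicate block, only the groups compared, and leaving out each library in turn.

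The labels do not say what the replicate numbers mark. Deviations of same-numbered libraries from their group means correlated over 14923 genes in each of the 6 pairs of groups (r = 0.564 to 0.611), so the numbers may mark a pairing. The main fit leaves this out, so its SEs, p-values and calls do not account for a pairing. The replicate block was run as an alternative that does. Blocked counts are given over the 48 genes, and blocked values for most genes whose call they changed. Per role, blocked counts are given for homologous recombination and the Fanconi pathway, and between the lines for the kinases. Those of the other roles also moved in places and are not given.

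The 48 genes and all lists were chosen with earlier results of these data known. Values per library are given for genes called in at least 1 of the 5 comparisons with a log2 change of at least 0.5 there, and for the highest and lowest level per length. Of other repair genes the 3 with the largest called change in each direction are named. One gene was listed as Claspn and found as Clspn. Gene positions and exon lengths are from the GENCODE annotation of GRCm38, and promoters from RefSeq for GRCm38.p6, which has a window for 37 of the 48.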

Additional observations from a re-analysis of the deposited data

Results flagged for a closer look

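The effect of irradiation differed between the lines in a test of the difference itself for 1 of the 48 repair genes (2.08%, against 1.94% of all genes). Dclre1c rose by 0.97 in WT and 1.90 in KO on the log2 scale, and the difference was 0.93 ± 0.17 (edgeR adjusted p = 0.0371). Both irradiated KO libraries (48.5 and 42.3 CPM) were above both irradiated WT libraries (24.97 and 22.3). Without any 1 of the 8 libraries the call was lost, with differences of 0.82 to 1.03.

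Among the 77 other repair genes 1 was called, Top3a (1.30%, against 1.94% of all genes). It changed by 0.40 ± 0.08 in WT and 1.15 ± 0.08 in KO, a difference of 0.75 ± 0.11 (edgeR adjusted p = 0.0156). Its levels were 42.2 and 41.3 CPM in unirradiated and 53.7 and 56.2 CPM in irradiated WT, and 35.3 and 37.6 in unirradiated and 79.5 and 82.01 in irradiated KO. Fits that leave out 1 library are not given here for Top3a, so its call cannot be compared with that of Dclre1c in this respect.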

How the results depend on the processing

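Of the 76 calls on repair genes, none changed direction under any alternative run. Calls kept numbered 75 with DESeq2 size factors, 70 with upper-quartile factors, 69 with no filter, 65 with the DESeq2 test and 76 with the replicate block, which lost no call and added those counted below. With only the groups compared in the fit, 61 were kept and 14 lost. Leaving out each library in turn kept 32 of the 76 in all 8 fits and lost 44 in at least 1. The cause was not tested, although each such fit has fewer samples.

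The number called lower with irradiation in WT was 8, and 4 with upper-quartile factors, 5 with no filter, 5 with only the groups compared and 4 with DESeq2. In that order, 18.4%, 15.9%, 10.4%, 17% and 16.2% of all genes were lower, with no filter over 29079 genes. With the replicate block the number called higher with irradiation was 19 in WT and 18 in KO, against 30.6% and 30.6% of all genes. In KO against WT it was 8 without and 10 after irradiation, against 21.4% and 25.2%. In each of these states 22 were lower, against 23.5% without and 25.2% after irradiation. The block gave 5 higher and 3 lower interactions, against 8.15% and 8.55% of all genes. With only the groups compared, 8 were lower in unirradiated KO, against 6.18% of all genes.

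Without 1 library, the irradiation counts were 8 to 11 higher and 3 to 8 lower in WT, and 8 to 11 higher and 2 to 6 lower in KO. The counts in KO against WT were 1 to 3 higher and 5 to 13 lower without irradiation, and 4 to 5 higher and 6 to 14 lower after it. The interaction count was 0 in each of the 8 fits. Over all genes the same fits called 13.1 to 19.3% higher and 11.6 to 17.8% lower in WT, 13.4 to 19.6% and 11.8 to 18.6% in KO, and in KO against WT 4.97 to 9.05% and 4.34 to 7.28% without and 7.10 to 12.1% and 5.11 to 10.1% after irradiation. Interaction shares of all genes also fell in each of these fits, from 1.37% higher and 0.57% lower in the main fit. The lack of interaction calls among the repair genes there therefore does not set them apart from all genes. With 2 libraries a group, low genes such as Atrip and Rnf8 could not be resolved.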
